A study of Mus musculus with 6 samples.

Results

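The transcripts of 10 genes that mark the naive state of mouse embryonic stem cells (ESCs) were followed through RNA-seq libraries of cells depleted of cohesin or condensin subunits. The genes were Esrrb, Nr0b1, Klf2, Klf4, Klf5, Tbx3, Tfcp2l1, Zfp42, Prdm14 and Dppa3, that is, 10 of the 20706 genes that could be given a symbol. They were chosen by name as genes of the naive state, with earlier results of these data known, and each was read from the RefSeq row of the gene that had the most counts summed over the 6 libraries. All 10 were expressed in the control library, taken here as an RPKM (exonic reads per length of exon and per depth of the library) of at least 1, so every gene entered every comparison.

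The study asked what the condensin II and cohesin complexes contribute to the expression of ESC genes. V6.5 ESCs, a line of mixed C57BL/6-129 background, were grown on irradiated fibroblasts, passaged off them, and infected with a lentiviral shRNA construct in 8 µg/ml polybrene. According to the labels the cells were selected for 48 hr in 0.5 µg/ml and for 48 hr in 1 µg/ml puromycin, and the methods of the study give a higher concentration. There was 1 library for a control shRNA against GFP, which has no target in these cells, 1 library for an shRNA against SMC1 (a cohesin subunit), 2 libraries for CAPH2 (a subunit of condensin II only) and 2 libraries for SMC2 (a subunit of both condensin complexes). The libraries of CAPH2 and of SMC2 came from different hairpins, called #1 and #2, and nothing in the labels says that any group held repeated cultures of 1 hairpin. All groups, the control included, carry a viral construct and went through selection, and RNA of 652000 cells entered each library together with ERCC spike-in RNA added by cell number.

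Naive ESCs correspond to the epiblast of the early blastocyst, and their identity rests on a set of transcription factors that act beside the core factors OCT4, SOX2 and NANOG. The set includes factors that bind enhancers together with the core factors (ESRRB, the Krüppel-like factors, TFCP2L1), targets and effectors of LIF signaling through STAT3 (KLF4, TFCP2L1) or of PI3K signaling (TBX3), and repressors of FGF signaling and DNA methylation (PRDM14). When ESCs move toward the formative and primed states of the later epiblast, these genes are shut down early, while OCT4 is kept for longer.

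Promoter sequences are shown for 4 of the genes because these windows hold matches to the letters searched, among them letters read by factors of the same network. They are RefSeq windows of GRCm38.p6, which is a later build than the mm9 coordinates given for the expression values, and run from 250 bases before to 50 bases after the annotated start, 5′ to 3′ on the strand of the gene. Windows were matched for 6 of the 10 genes, and Klf5, Tbx3, Prdm14 and Dppa3 had no entry. Capitals mark matches on either strand to the letters searched, and no marked matches overlapped in the windows shown. The windows are Zfp42 at chr8:43306960-43307259 (minus strand), Tfcp2l1 at chr1:118627695-118627994 (plus strand), Nr0b1 at chrX:86191525-86191824 (plus strand) and the first of 2 Esrrb windows at chr12:86360867-86361166 (plus strand).
Zfp42: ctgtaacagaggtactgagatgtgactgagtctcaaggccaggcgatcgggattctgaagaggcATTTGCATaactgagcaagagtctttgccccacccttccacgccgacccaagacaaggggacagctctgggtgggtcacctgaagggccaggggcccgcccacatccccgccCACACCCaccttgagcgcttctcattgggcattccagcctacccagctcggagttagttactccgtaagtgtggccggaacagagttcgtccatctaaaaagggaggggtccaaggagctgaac
Tfcp2l1: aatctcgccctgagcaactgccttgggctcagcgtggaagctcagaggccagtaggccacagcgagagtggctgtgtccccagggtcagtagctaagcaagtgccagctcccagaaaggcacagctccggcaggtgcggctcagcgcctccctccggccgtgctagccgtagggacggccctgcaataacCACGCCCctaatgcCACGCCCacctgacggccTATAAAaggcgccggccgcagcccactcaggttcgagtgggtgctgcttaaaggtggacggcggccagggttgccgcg
Nr0b1: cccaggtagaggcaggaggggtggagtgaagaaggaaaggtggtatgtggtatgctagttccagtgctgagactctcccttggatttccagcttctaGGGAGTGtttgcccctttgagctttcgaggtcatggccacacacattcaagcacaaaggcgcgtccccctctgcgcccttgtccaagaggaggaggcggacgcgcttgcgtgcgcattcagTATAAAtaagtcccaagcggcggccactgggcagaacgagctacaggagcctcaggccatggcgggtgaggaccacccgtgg
Esrrb: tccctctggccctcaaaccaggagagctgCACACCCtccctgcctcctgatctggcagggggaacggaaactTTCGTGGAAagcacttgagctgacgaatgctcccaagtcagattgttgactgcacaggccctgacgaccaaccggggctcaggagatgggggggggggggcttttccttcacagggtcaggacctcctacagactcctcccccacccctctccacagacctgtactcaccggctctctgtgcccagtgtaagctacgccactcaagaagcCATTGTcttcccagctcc

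The Zfp42 window held the octamer ATTTGCAT, the letters read by OCT4 and related POU factors, which is in 1.74% of the 32851 windows of the table. GGGNGTG, a loose form of the core read by Krüppel-like factors with any base allowed at N, was in all 4 windows shown. Tfcp2l1 had 2 matches, and 29.2% of all windows hold these letters. The base at N was A in the Nr0b1 match, T in those of Zfp42 and Esrrb, and C in those of Tfcp2l1. A match to the loose form can lie outside the letters that these factors prefer. These 4 windows were picked because they hold matches, so their counts cannot be set against the shares of all windows. Their GC content was 57.7% to 65.3%, against a median of 52.7% over all windows. The Esrrb window also held ACAATG, a SOX core found in 12.6% of windows, and TTCNNNGAA, the STAT palindrome found in 8.30%. TATAAA, the TATA box, was in the Tfcp2l1 and Nr0b1 windows and is in 13.6% of all windows. AAGGTCA, the half-site read by ESRRB and found in 4.72% of windows, was in none of the members' windows. The windows of Klf2 and Klf4 and the second window of Esrrb held none of the 6 motifs. A match describes letters and is not a measured binding site.

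The depth and state of the libraries bear on what follows. Between 18823247 and 23324537 reads per library stood behind the RPKM values, with 21521988 for GFP and 19227946 for SMC1. Smc1a, which encodes SMC1, was at 39.9% of GFP in the SMC1 library, Ncaph2, which encodes CAPH2, was at 21.0% and 34.8% in the CAPH2 libraries, and Smc2 was at 70.7% and 71.9% in the SMC2 libraries. Smc2 was at 152% to 159% of GFP in the 3 libraries with another target, so the SMC2 libraries held less Smc2 than every other library. The ESC markers Pou5f1 (RPKM 785 to 1285), Sox2 (143 to 365) and Nanog (171 to 424) were abundant in all 6 libraries. The SMC1 library had the lowest spike-in share, at 0.948% of counts. The share was 1.11% in CAPH2 #1, 1.11% in SMC2 #1 and 1.16% in SMC2 #2, against 1.72% in GFP and 1.77% in CAPH2 #2. The SMC1 library also had the highest sum of fibroblast markers, described with the gene lists. GFP and SMC1 have no replicate, so no p-value is given against either of them, the 95% exact binomial intervals cover counting error only, and every change against GFP shares the same single GFP library.

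Esrrb (NM_011934, chr12:87762594-87862577, plus strand, mm9) encodes an orphan nuclear receptor that can stand in for NANOG in maintaining ESCs. Its RPKM was 209.6 in GFP, 21.5 in SMC1, 158 and 179 in CAPH2 #1 and #2, and 173 and 182 in SMC2 #1 and #2. The SMC1 library was far below the other 5, and all 4 condensin libraries were below GFP. Esrrb fell to 10.2% of GFP (9.74% to 10.8%) with SMC1 depletion, a log2 change of -3.29 that was undercut by 0.380% of all 15538 expressed RefSeq rows. This change rests on 18934 counts in GFP and 1732 in SMC1.

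Nr0b1 (NM_007430, chrX:83437114-83441283, plus strand), also called Dax1, encodes an orphan nuclear receptor without a classical DNA-binding domain that binds OCT4 and ESRRB. Its RPKM was 85.0 in GFP, 11.8 in SMC1, 75.5 and 82.2 in CAPH2, and 83.6 and 80.1 in SMC2. Only the SMC1 library was set apart, and the highest condensin library was at 98.3% of GFP. The fall with SMC1 depletion was to 13.8% of GFP (12.5% to 15.4%), a log2 change of -2.85.

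Klf2, Klf4 and Klf5 encode Krüppel-like zinc finger activators that bind many of the same sites in ESCs. Klf2 (NM_008452, chr8:74842961-74845553, plus strand) had an RPKM of 209.8 in GFP, 25.3 in SMC1, 145 and 170 in CAPH2, and 148 and 151 in SMC2. Klf4 (NM_010637, chr4:55540009-55545347, minus strand), a reprogramming factor downstream of STAT3, had 78.5 in GFP, 9.23 in SMC1, 53.1 and 66.9 in CAPH2, and 65.5 and 63.5 in SMC2. Both genes were lowest in SMC1 and highest in GFP, with the condensin libraries between. Klf2 fell to 12.1% (11.2% to 12.9%) and Klf4 to 11.8% (10.7% to 12.8%) of GFP with SMC1 depletion, and these intervals overlap.

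Klf5 (NM_009769, chr14:99697910-99712628, plus strand) showed another pattern. Its RPKM was 70.1 in GFP, 31.4 in SMC1, 76.4 and 89.3 in CAPH2, and 82.4 and 88.3 in SMC2. The SMC1 library was the lowest, as for the other genes, but all 4 condensin libraries were above GFP. Klf5 fell to 44.7% of GFP (41.6% to 48.1%) with SMC1 depletion, and its interval lies above those of the other 9 genes. The log2 change of Klf5 was -1.16, and 6.51% of expressed rows had a lower one. The ratio of the Klf5 to the Klf2 RPKM was 0.334 in GFP, 0.524 to 0.584 in the condensin libraries and 1.24 in SMC1, so Klf5 exceeded Klf2 only in the SMC1 library. The ratio of Klf5 to Klf4 was 0.893 in GFP, 1.26 to 1.44 in the condensin libraries and 3.40 in SMC1.

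Tbx3 (NM_011535, chr5:120120678-120134610, plus strand) encodes a T-box factor. Its RPKM was 26.2 in GFP, 3.75 in SMC1, 23.5 and 25.6 in CAPH2, and 24.0 and 24.9 in SMC2. The 4 condensin libraries lay just under GFP and SMC1 far below. Tbx3 fell to 14.3% of GFP (12.8% to 15.9%) with SMC1 depletion, a log2 change of -2.81, and its other RefSeq row gave -2.82.

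Tfcp2l1 (NM_023755, chr1:120524522-120581745, plus strand) encodes a grainyhead-family factor downstream of LIF and STAT3. Its RPKM was 44.9 in GFP, 5.32 in SMC1, 40.1 and 49.6 in CAPH2, and 44.0 and 47.3 in SMC2. GFP lay inside the range of the condensin libraries, with 2 of them on each side. With SMC1 depletion Tfcp2l1 fell to 11.9% of GFP (11.1% to 12.7%), a log2 change of -3.07.

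Zfp42 (NM_009556, chr8:44380421-44392363, minus strand) encodes REX1, a zinc finger protein whose loss is a common readout of exit from the naive state. Its RPKM was 205 in GFP, 51.5 in SMC1, 209.9 and 212 in CAPH2, and 215 and 205 in SMC2. The 5 libraries other than SMC1 spanned a narrow range that included GFP. Zfp42 fell to 25.1% of GFP (23.8% to 26.4%) with SMC1 depletion, a smaller fall than that of every other member but Klf5. The ratio of the Zfp42 to the Esrrb RPKM was 0.979 in GFP, 1.13 to 1.33 in the condensin libraries and 2.40 in SMC1.

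Prdm14 (NM_001081209, chr1:13103509-13117244, minus strand) encodes a PR-domain protein that recruits repressors to genes of FGF signaling and DNA methylation. It had the lowest RPKM of the 10 genes in every library, with 19.9 in GFP, 1.40 in SMC1, 12.5 and 15.7 in CAPH2, and 14.1 and 14.2 in SMC2. SMC1 was the lowest library and GFP the highest. Prdm14 fell to 7.06% of GFP with SMC1 depletion, and since this rests on 1110 and 70 counts the interval was wide (5.46% to 8.99%). Its log2 change of -3.82 was the lowest point value among the members, and only the interval of Prdm14 lay wholly below those of the other 9.

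Dppa3 (NM_139218, chr6:122576442-122580289, plus strand) encodes STELLA, a maternal and germline factor that protects DNA methylation of the maternal genome in the zygote. It is not a sequence-specific transcription factor and was kept because the named set includes it. The RPKM was 25.3 in GFP, 3.56 in SMC1, 16.9 and 20.3 in CAPH2, and 18.3 and 17.2 in SMC2. GFP was the highest and SMC1 the lowest library. Dppa3 fell to 14.1% of GFP (10.5% to 18.6%) with SMC1 depletion, on 445 and 56 counts.

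**Figure D1:**
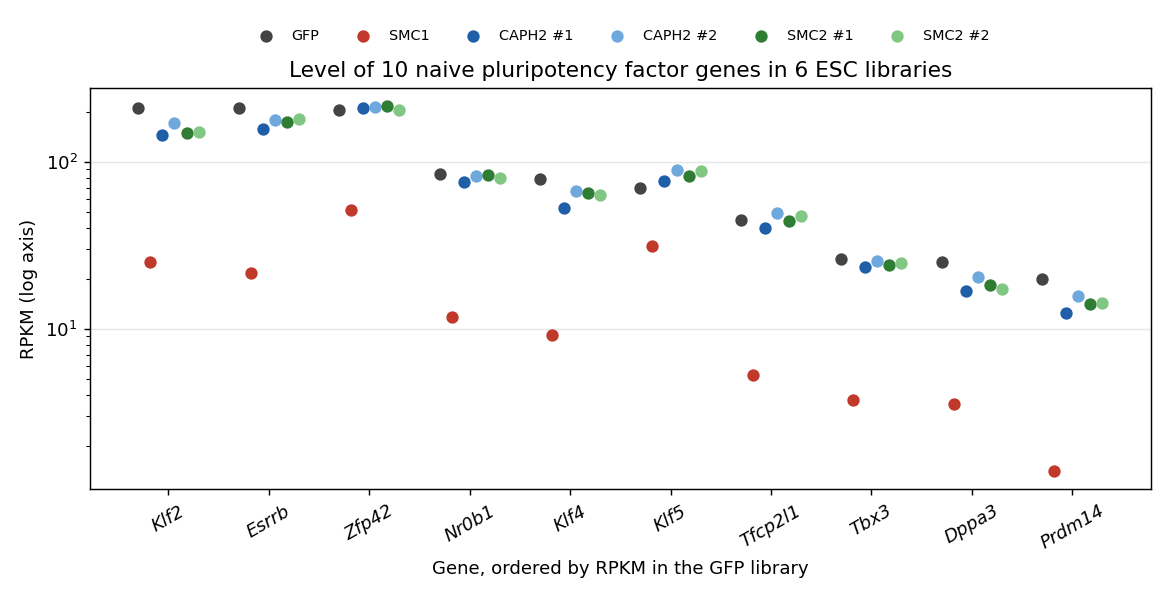
RPKM of the 10 genes (x axis, 1 group of points per gene) in each of the 6 libraries (log y axis), 1 point per library with no error bar because a library has no replicate. In every gene the SMC1 point is the lowest, from 1.40 for Prdm14 to 51.5 for Zfp42, while the other 5 libraries lie close together.

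The 10 genes fell together with SMC1 depletion. All 10 had a log2 change of -1 or lower, a call met by 8.17% of all expressed RefSeq rows, and 8 of 10 had a change of -2 or lower, a threshold picked with the values known and met by 2.16%. Klf5 and Zfp42 were the members above it, Zfp42 at -1.99. The median change was -2.95 (range -3.82 to -1.16) against -0.02 over all expressed rows, of which 51.8% were below GFP. Counted by genes rather than rows, 8.39% of 12045 expressed genes met the call of -1. The sum of the 10 RPKM values was 974.5 in GFP, 164.7 in SMC1 and 811 to 911 in the condensin libraries. In bulk RNA, fewer cells that express these genes and less RNA per cell cannot be told apart.

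**Figure D2:**
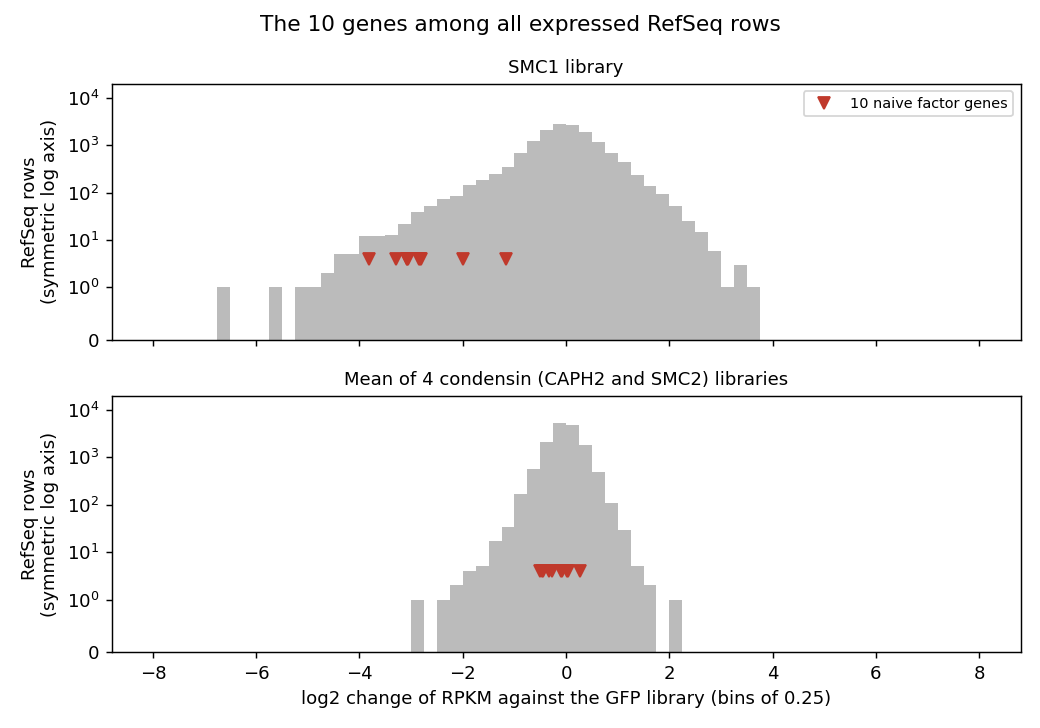
Number of expressed RefSeq rows (symmetric log y axis) by log2 change of RPKM against GFP in bins of 0.25 (x axis), with triangles at the 10 genes, for SMC1 (top) and for the mean of the 4 condensin libraries (bottom). With SMC1 the triangles sit in the left tail from -3.82 to -1.16. In the condensin mean they are spread from the lower side (Prdm14, Dppa3 and Klf2) to the upper side (Klf5) of the distribution, at values whose signs depend on the scaling.

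A comparison of SMC1 with the condensin libraries does not use GFP. The SMC1 value was below the lowest of the 4 condensin libraries for all 10 genes, but so it was for 41.1% of the 15213 rows that reached an RPKM of 1 in each of those libraries. All 10 genes had a log2 of -1 or lower against the mean of the condensin libraries, a call met by 4.74% of rows. The median was -2.73, from -3.33 for Prdm14 to -1.42 for Klf5, against -0.02 over all rows. As a fold, the condensin mean was 10.0 times the SMC1 level for Prdm14, 8.50 times for Tfcp2l1, 8.05 times for Esrrb, 4.08 times for Zfp42 and 2.68 times for Klf5. With 1 library against 4, an exact permutation test could not reach 0.05 and none was run.

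With condensin depletion the same genes changed less than with SMC1 depletion on the RPKM scale. None of the 10 reached a log2 change of -1 in the mean of the CAPH2 or the SMC2 hairpins. The call was met by 0.579% of rows with CAPH2 and 0.483% with SMC2, so its absence in 10 genes says little. In the single condensin libraries 4.52% to 9.40% of rows lay below Prdm14, 4.40% to 11.2% below Dppa3 and 6.07% to 12.1% below Klf2. For Zfp42 the share was 53.5% to 63.8%, and for Klf5 66.9% to 91.8%. The median over the members was -0.21 with CAPH2 (all rows -0.01) and -0.17 with SMC2 (all rows -0.03). Under the RPKM scale, 7 of 10 genes (Esrrb, Klf2, Klf4, Tbx3, Prdm14, Nr0b1 and Dppa3) were below GFP in all 4 condensin libraries, against 37.9% of rows, and 1 of 10, Klf5, was above GFP in all 4, against 32.4%. Klf5 was thus 1 of 10 with SMC1 below and all 4 condensin libraries above GFP, against 5.5% of rows. Klf5 and Zfp42 were 2 of 10 with SMC1 below and both CAPH2 libraries above GFP, against 8.28%. For Zfp42 the counting interval in CAPH2 #1 (99.2% to 105.4% of GFP) included the GFP level. When counts were scaled to the ERCC spike-ins instead, none of the 10 was below GFP in all 4 condensin libraries, and only 1.73% of all rows were. The directions below GFP thus rest on the scaling.

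On the RPKM scale the lowest means under condensin depletion were those of Prdm14, Dppa3 and Klf2, and the ERCC values of each gene follow at the end. The log2 change of Prdm14 was -0.51 ± 0.23 (SD, n = 2 hairpins) with CAPH2 and -0.49 ± 0.01 with SMC2. For Dppa3 it was -0.45 ± 0.19 and -0.51 ± 0.06, and for Klf2 -0.42 ± 0.16 and -0.49 ± 0.02. These means exceed the SD between hairpins, which leaves out the unknown error of the single GFP library. Klf4 had -0.40 ± 0.24 and -0.28 ± 0.03, Esrrb -0.32 ± 0.13 and -0.24 ± 0.05, and Klf5 0.24 ± 0.16 and 0.28 ± 0.07. Tbx3 (-0.10 ± 0.09 and -0.10 ± 0.04) and Nr0b1 (-0.11 ± 0.09 and -0.06 ± 0.04) were close to GFP on this scale. Tfcp2l1 (-0.01 ± 0.22 and 0.02 ± 0.07) and Zfp42 (0.04 ± 0.01 and 0.03 ± 0.05) were at the GFP level on this scale only. Under ERCC scaling the SMC2 means were all above GFP, with Klf5 at 0.89, Zfp42 at 0.64, Tfcp2l1 at 0.63, Nr0b1 at 0.55, Tbx3 at 0.50, Esrrb at 0.36, Klf4 at 0.32, Klf2 at 0.12, Prdm14 at 0.11 and Dppa3 at 0.10. The CAPH2 means under ERCC scaling were on both sides of GFP, with Klf5 at 0.55, Zfp42 at 0.37, Tfcp2l1 at 0.30, Tbx3 at 0.22, Nr0b1 at 0.21, Esrrb at -0.01, Klf4 at -0.09, Klf2 at -0.10, Dppa3 at -0.14 and Prdm14 at -0.21.

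**Figure D3:**
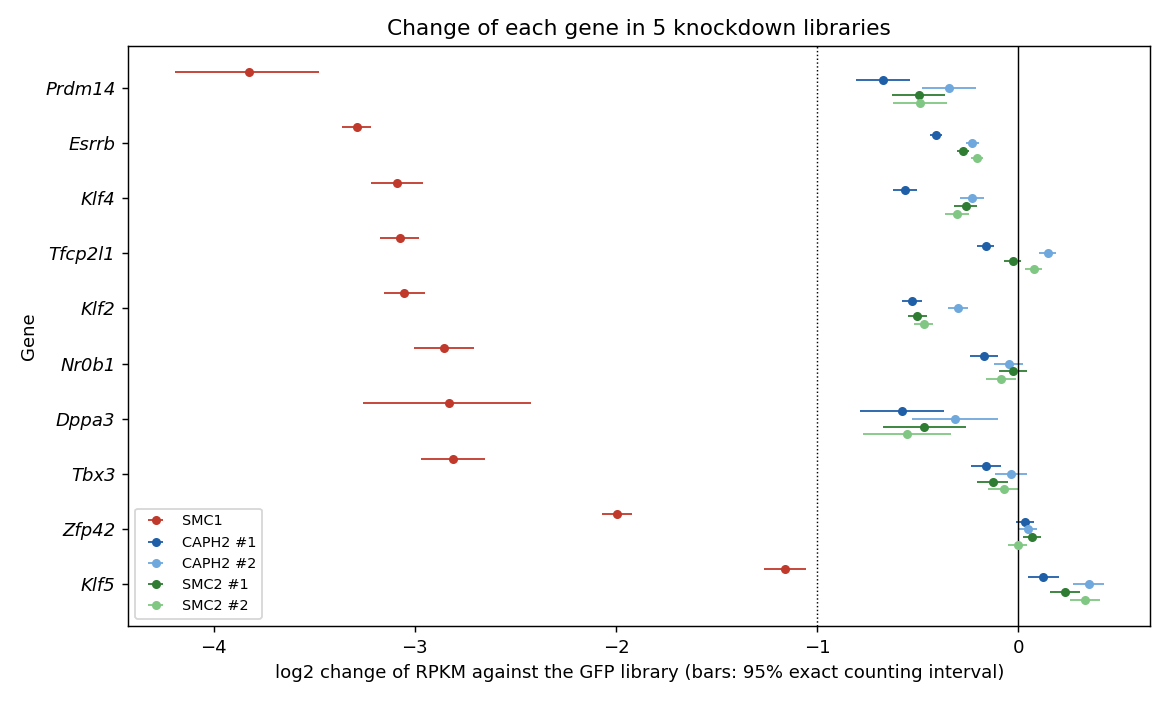
Log2 change of RPKM against the GFP library (x axis) for each gene (y axis) in the 5 knockdown libraries, with bars for the 95% exact binomial interval of counting error and a dotted line at the call of -1. SMC1 points run from -3.82 to -1.16, and the condensin points lie between -0.67 and 0.35, signs that turn for most genes when counts are scaled to the ERCC spike-ins.

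CAPH2 and SMC2 could be compared by a test, since each had 2 libraries. None of the 10 genes was called by edgeR (quasi-likelihood test, Benjamini-Hochberg adjustment over 18245 rows), where 0.00548% of rows, the single row of Smc2, passed. The log2 difference of SMC2 over CAPH2 ranged from -0.07 for Klf2 (SE 0.0802) to 0.12 for Klf4 (SE 0.0995), with SE from 0.0609 to 0.129 over the members. The lowest adjusted p by edgeR was 0.9995 and the lowest unadjusted p 0.261, for Esrrb, and no member was under 0.05 unadjusted. Over all rows 565 had an unadjusted p under 0.05, and DESeq2 called 5 rows and none of the members. In none of the 10 genes did both SMC2 libraries lie on 1 side of both CAPH2 libraries. The test left Ncaph2, a target, at an adjusted p of 0.0511 by edgeR, so its reach with these libraries is limited and a missed threshold does not show equal levels.

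Scaling to spike-ins moved all libraries but CAPH2 #2 upward. The shift in log2 was 0.86 for SMC1, 0.63 for CAPH2 #1, -0.05 for CAPH2 #2, 0.64 for SMC2 #1 and 0.57 for SMC2 #2, and the median of all expressed rows in SMC1 became 0.84. All 10 genes stayed below GFP in SMC1 on this scale, with a median of -2.09, and 9 of 10 kept a change of -1 or lower, which 2.61% of rows met on this scale, while Klf5 was at -0.30. The scaling adds the same amount to every row of a library, so the distance of the members' median from that of all rows, -2.93 in SMC1, is the same on both scales by construction. In the CAPH2 mean the members' median turned from -0.21 to 0.10, and in the SMC2 mean from -0.17 to 0.43. CAPH2 #2, whose spike-in share of 1.77% was close to that of GFP, changed no sign but that of Zfp42, which went from 0.05 to the GFP level.

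**Figure D4:**
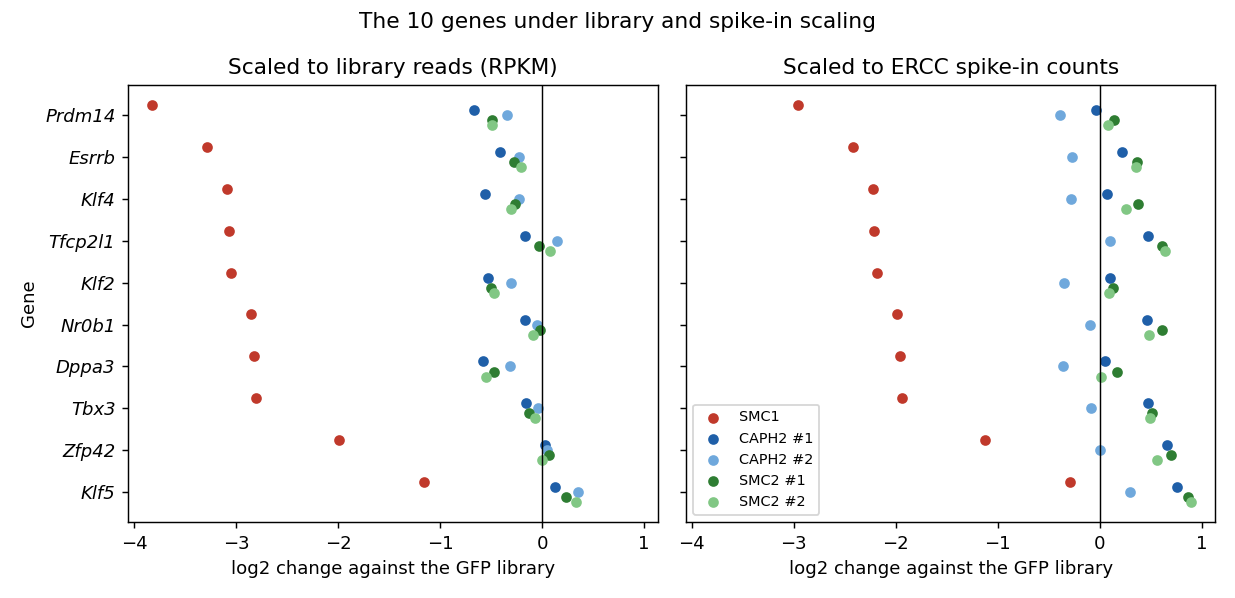
Log2 change of each gene (y axis, 1 row per gene) against GFP in the 5 knockdown libraries (x axis) for the deposited RPKM on the left and for counts scaled to ERCC counts on the right. The SMC1 points stay left of 0 in both panels, and the condensin points of CAPH2 #1, SMC2 #1 and SMC2 #2 move from around 0 or below to mostly above 0.

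The order of the 10 levels was much the same across the 4 condensin libraries, while in SMC1 the leading genes differed from those in GFP. In the 4 condensin libraries Zfp42 was the highest (204.7 to 214.9), followed by Esrrb (157.7 to 181.6) and Klf2 (145.4 to 170.3), whose ranges overlap. Klf5 (76.4 to 89.3) and Nr0b1 (75.5 to 83.6) also overlapped, and Klf4 (53.1 to 66.9), Tfcp2l1 (40.1 to 49.6), Tbx3 (23.5 to 25.6), Dppa3 (16.9 to 20.3) and Prdm14 (12.5 to 15.7) were separate from their neighbors. In GFP the order began with Klf2 (209.8), Esrrb (209.6) and Zfp42 (205), which a single library cannot rank. In SMC1 the order began with Zfp42 (51.5), Klf5 (31.4) and Klf2 (25.3), and Klf5 had moved from the sixth place in GFP to the second. Zfp42 and Klf5 made up 28.3% of the summed RPKM of the 10 genes in GFP and 50.4% in SMC1.

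Sequence copies limit what the counts of some members mean. An exact copy elsewhere in the mm9 genome was found for 51.0% of the exonic 31-base windows of Dppa3, 45.7% of those of Zfp42 and 23.4% of those of Klf4. The share was 6.00% for Klf5, 3.54% for Tfcp2l1, 1.76% for Esrrb, and under 1% for Prdm14, Tbx3, Klf2 and Nr0b1. Reads with more than 2 sites were discarded, which touches 12.7% of the windows of Dppa3, 7.66% of Klf4 and 2.98% of Tfcp2l1. Reads with 2 sites were kept at 1 of them, so part of the counts of Zfp42, Dppa3 and Klf4 may be placed on a copy or come from one. An exon of Gm2301 on the opposite strand overlaps Tbx3 by 115 bases, a stretch that libraries without strand cannot assign. Tfcp2l1 overlaps an annotated U1 copy on its own strand by 130 bases.

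Other gene lists were set beside the members under SMC1 depletion, on the RPKM scale unless stated. A fall is again a log2 change of -1 or lower, met by 8.17% of all rows. A rise is a change of 1 or higher, met by 6.49%. Of the core pluripotency genes, 2 of 4 fell, with a median of -1.01, Sox2 at -1.35 and Nanog at -1.31, while Pou5f1 had -0.71 and Sall4 -0.06. Of 12 other ESC and naive-state genes 8 fell and none rose, with a median of -1.81. Tcl1, an AKT coactivator, was the lowest at -4.01 (RPKM 75.4 in GFP and 4.67 in SMC1), and Gbx2, a homeobox gene downstream of STAT3, went the other way at 0.93. Of 8 genes of LIF-STAT3 signaling 1 fell, Socs3 at -1.11, which is near the share of all rows, and the median was -0.33. The receptor genes Lifr and Il6st had -0.75 and -0.48, and Stat3 itself -0.09. Under ERCC scaling 2.61% of all rows fell and 38.6% rose. None of the core genes fell on that scale (median -0.14, Pou5f1 at 0.15). Of the 12 other ESC and naive-state genes 6 fell and 2 rose (median -0.95). The LIF-STAT3 median turned to 0.53, with no gene fallen and 1 risen, Jak1.

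Genes of later or other states had medians above 0. Of 10 formative and primed genes 5 rose by a log2 of at least 1, a call met by 6.49% of rows, and none fell. They were Fgf5, Pou3f1, Sox3, Lef1 and Sox11, with the highest value for Sox3 at 2.01 (RPKM 6.84 in GFP and 27.6 in SMC1). Otx2 had -0.01, and Zic2 was the lowest of the list at -0.37, or 77.5% of GFP (73.7% to 81.4%). Of the mesendoderm list, 4 of 6 genes were expressed and 2 rose, T (Brachyury) at 1.25 and Wnt3 at 1.91. Nodal was at 0.24, and Gsc was lower than in GFP at -0.31, on 71 counts in GFP and 51 in SMC1. Evx1 and Mixl1 were under an RPKM of 1 in GFP, at 0.614 and 0.894, and had 2.26 and 1.14 in SMC1. The Mixl1 value rests on 44 and 50 counts, and its interval (83.1% to 195% of GFP) included the GFP level. Of the trophectoderm list, 4 of 7 were expressed and Krt8 and Krt18, keratins of simple epithelia, rose by 1.19 and 1.36. Tfap2c, which is also expressed in naive ESCs, fell to -3.13, and Eomes was at -0.55. Cdx2, Gata3 and Elf5 were under an RPKM of 1 in GFP. Cdx2 had 0.325 in GFP, 2.59 in SMC1 (15 and 107 counts) and 0.708 to 0.973 in the condensin libraries. Gata3 had 0.650 in GFP and 1.55 in SMC1, and Elf5 was not detected in either. Of the primitive endoderm list, 6 of 11 were expressed and Dab2, Col4a1 and Col4a2 rose, while Lama1 fell at -1.02. Gata4 was at 0.60 (RPKM 2.37 in GFP and 3.59 in SMC1) and Lamb1 at 0.52. Gata6, Sox17, Sox7, Pdgfra and Foxa2 were under an RPKM of 1 in GFP and in SMC1. Their RPKM in GFP and SMC1 was 0.713 and 0.505 for Gata6, 0.119 and 0.299 for Sox17, and 0.654 and 0.701 for Sox7. It was 0.644 and 0.926 for Pdgfra, and 0.175 and 0.734 for Foxa2. Under ERCC scaling 38.6% of all rows met the call of 1 in SMC1, and 8 of the 10 formative and primed genes, 3 of 4 mesendoderm, 2 of 4 trophectoderm and 5 of 6 primitive endoderm genes did, while Tfap2c alone of these lists fell, at -2.26. With condensin depletion none of the listed genes that were expressed in GFP fell by 1 in the mean of the hairpins, and T and Wnt3 were those that rose by 1, with CAPH2 (0.405% of rows). No expressed gene of the lists did so with SMC2 (0.219% of rows), and the difference was not tested.

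Markers of embryonic fibroblasts, the feeder cells of the culture, were also higher in the SMC1 library, although the study removed feeders by a plating step before infection and selected the cells with puromycin. The summed RPKM of the 10 markers was 61.6 in GFP, 142.4 in SMC1, 102.0 in CAPH2 #1 and 68.2 to 81.2 in the other condensin libraries. Of the 6 markers expressed in GFP 3 rose with SMC1, against 6.49% of rows, with a median of 1.04, and Fbln2 was the highest at 1.74. Postn, Lum, Dcn and Twist2 were under an RPKM of 1 in GFP, and each was higher in SMC1. Their counts in GFP and SMC1 were 60 and 79 for Postn, 1 and 5 for Lum, 1 and 19 for Dcn, and 23 and 45 for Twist2. Lum and Dcn stayed under an RPKM of 1 in SMC1. Under ERCC scaling all 6 met the call of 1, as did 38.6% of all rows. The part of fibroblast RNA in the fall of the naive genes was not tested.

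**Figure D5:**
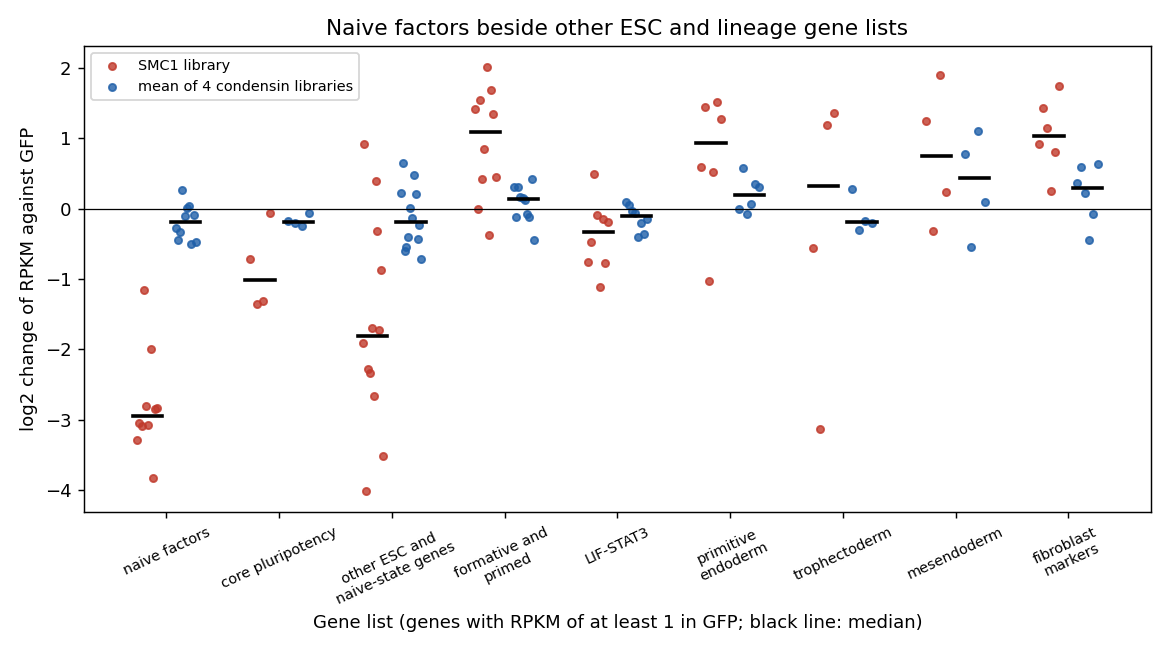
Log2 change of RPKM against GFP (y axis) for the expressed genes of each list (x axis), 1 point per gene in red for SMC1 and in blue for the mean of the 4 condensin libraries, with the list median as a black line. With SMC1 the naive factors have the lowest median at -2.95, the other ESC and naive-state genes follow at -1.81, and the formative and primed list lies above 0 at 1.10.

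Klf2 and Klf4 were the lowest of the Krüppel-like family with SMC1 depletion, while Klf5 lay among the other family members. This family was looked at after the values of Klf2, Klf4 and Klf5 were known. Of 17 genes Klf1 to Klf17, 14 were expressed, and of the 11 that are not members 4 fell with SMC1, Klf15 (-2.23), Klf8 (-1.31), Klf10 (-1.17) and Klf3 (-1.05), against 8.17% of all rows, and 1 rose, Klf12 (1.07), against 6.49%. The median of the 11 was -0.63, or 0.23 under ERCC scaling, where 1 fell and 3 rose, against 2.61% and 38.6% of all rows. Klf2 was at -3.05, Klf4 at -3.09 and Klf5 at -1.16, above Klf15, Klf8 and Klf10.

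The genes whose profile over the 6 libraries was most like the median profile of the members were found among 11116 genes by the root mean square difference of centered log2 RPKM. Among the nearest were Ubash3a (0.0447), Gtsf1l (0.0784), Tfap2c (0.0905) and Myo1f (0.101). Tfap2c encodes the factor AP-2γ. Ubash3a was also the gene nearest to Klf2 and to Klf4, Gtsf1l the nearest to Tbx3 and to Nr0b1, and Tfap2c the nearest to Esrrb. Klf5 was nearest to Kat6b (0.0944), Zfp42 to Hmces (0.0333), Tfcp2l1 to Spn (0.134), Prdm14 to Cpne9 (0.0598) and Dppa3 to Slc28a1 (0.0706). The likeness is over 6 libraries, and in the median profile SMC1 lay at -2.30 around the mean and the other 5 libraries between 0.31 and 0.63.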

How the data were processed

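RNA-seq of V6.5 ESCs was taken from 6 libraries. The authors used Bowtie to align reads to mm9, discarded reads with more than 2 sites, and counted exonic reads per RefSeq row with RPKM_count. The deposited files hold raw counts and RPKM values, the latter scaled by the authors to exon length and library reads and not to the ERCC spike-ins. Each library lists 26073 RefSeq rows, 25353 with a symbol, and 92 ERCC rows, left out of the tests. Bowtie aligns without splicing, so reads over exon junctions were lost.

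The members, lists and thresholds were chosen with earlier results of these data known. Log2 changes used deposited RPKM with no pseudocount over rows with RPKM of at least 1 in GFP, and hairpins were averaged before the log2 for group values, or given as mean ± SD of the log2 values. CAPH2 was tested against SMC2 by edgeR 4.0.16 (TMM, quasi-likelihood) on rows in which 2 or more of the 4 libraries had 10 counts or more, with a test on simulated data beforehand. DESeq2 1.42.0 was an alternative, as were TMM, size factor and ERCC scaling, a pseudocount of 1, filters at an RPKM of 5 or none, averaging RefSeq rows, and leaving out each hairpin. The genes named are the members, the targets, the largest rise and fall of a list, list genes against its median, and the nearest genes. Other genes of the lists, those of the Krüppel-like family included, were named after their values were seen. Likeness used genes with a mean of at least 100 counts. The value of 1 of the nearest genes is not reported here. Total counts were 25467427 to 31337313 per library, so the counting error is small except for Prdm14 and Dppa3. Intervals use 95% confidence. Python 3.11.15, scipy 1.17.1 and R 4.3.3 were used.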

Additional observations from a re-analysis of the deposited data

Results flagged for a closer look

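For Klf5 the SMC1 library lay below GFP and all 4 condensin libraries above it, a pattern shown by 5.5% of expressed rows, and for Zfp42 this held for the CAPH2 libraries but not for SMC2 #2. A value below GFP with SMC1 and above GFP with both CAPH2 hairpins, as in 2 of the 10 genes, was found in 8.28% of rows. Klf5 was below GFP with SMC1 (log2 -1.16) and above it with both CAPH2 hairpins, at a mean of 0.2362, and with both SMC2 hairpins, at a mean of 0.2824. Zfp42 was below GFP with SMC1 (-1.99) and above it with both CAPH2 hairpins, at a mean of 0.0397, a difference of a few percent in RPKM. Its counting interval included the GFP level in CAPH2 #1 (99.2% to 105.4% of GFP) and nearly reached it in CAPH2 #2 (100.1% to 106.7%). These differences were not tested, because SMC1 and GFP have 1 library each, and all of them share that GFP library. Under ERCC scaling Klf5 stayed on opposite sides, with SMC1 at -0.30 and the condensin libraries from 0.30 to 0.90, whereas Zfp42 in CAPH2 #2 was at the GFP level.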

How the results depend on the processing

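The median changes of the 10 genes kept their direction under TMM and DESeq2 scaling, other filters, the pseudocount, averaged RefSeq rows and each hairpin left out. Under ERCC scaling the median was -2.09 for SMC1 against GFP, 0.10 for CAPH2, 0.43 for SMC2, and -2.33 for SMC1 against the 4 condensin libraries, and the last was -2.59 with a pseudocount of 1. All moved beyond the spread, and the CAPH2 and SMC2 medians turned. No member was called between CAPH2 and SMC2 under any alternative. The number of rows called there, 1, became 5 with DESeq2, 4 with ERCC totals, 3 with all 6 libraries in the fit, 8 without the filter and 15 with the replicate block. Leaving out 1 hairpin gave 1 to 404 rows: 404 without CAPH2 #2, 29 without CAPH2 #1, 3 without SMC2 #1 and 1 without SMC2 #2, with the lone library assumed to vary like the other group. The cause was not tested. The replicate numbers were read as hairpin numbers, and whether same-numbered libraries share a batch was not tested. Deviations of same-numbered libraries correlated at 0.0488. The block changed no call of a member, though it took the rows called from 1 to 15. Counts of 70 for Prdm14 and 56 for Dppa3 in SMC1 limit their precision.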
